A study of Mus musculus with 12 samples.

Results

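The 10 genes described here code for the entry point of Toll-like receptor signalling and for proteins grouped here as feedback. They are the co-receptor Cd14, the receptors Tlr2 and Tlr4, the Tlr4 partner Ly96 (MD-2), the adaptor Myd88, and the feedback genes Nfkbia, Tnfaip3, Birc3, Socs3 and Zfp36. They were chosen by symbol, and all 10 were found among the 49315 genes of the count table and among the 17408 genes of the normalized table. All 10 passed the filter on low counts. They were measured by bulk RNA sequencing of the femoral shaft, the bony tube of the thigh after its marrow has been spun out, in male mice with an intact catalase gene (wild type, Cat +/+) or without it (knockout, Cat -/-). Catalase, an enzyme of peroxisomes, splits hydrogen peroxide and can also oxidise ethanol. At 12 weeks of age the mice were gavaged on 4 days with ethanol, at 3, 3, 4 and 4.5 g per kg from a 31.5% (v/v) solution, or with the same volume of phosphate-buffered saline (PBS), and were killed 6 hours after the last gavage. Libraries 1 to 3 came from knockouts given PBS, 4 to 6 from knockouts given ethanol, 7 to 9 from wild-type mice given PBS and 10 to 12 from wild-type mice given ethanol. Each library was made from the pooled RNA of 2 mice, so n = 3 pools per group, and every p-value below measures the spread between pools.

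Toll-like receptors recognise parts of microbes and of damaged cells. Tlr4 binds bacterial lipopolysaccharide when Cd14 hands it over to the Tlr4 and Ly96 complex, and Tlr2 binds bacterial lipopeptides. Both pass the signal through Myd88 to kinases that free the transcription factor NF-kB, which then turns on inflammatory genes and also its own inhibitors. In bone these receptors are carried by macrophages, neutrophils, osteoclast precursors and cells of the osteoblast line, and ethanol has long been studied as a trigger of the pathway in gut and liver.

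Library totals were 19950222 to 28789308 counts, and levels are given as CPM, counts relative to the library total after scaling by TMM factors of 0.908 to 1.05. Cat was at 65.9 to 74.2 CPM in the 6 knockout libraries and at 128 to 175 CPM in the 6 wild-type libraries, with no overlap, although reads remained in the knockout and the removed part of the gene is not given in the labels. The defining markers of osteoblasts, osteocytes, osteoclasts and marrow cells were all detected, none at 0 in a whole group. Skeletal muscle markers took 2.84%, 3.19% and 3.44% of counts in libraries 8, 9 and 12, all wild type, against 0.125% to 1.80% in the other 9. Results are therefore also given without these 3 libraries where that matters. That fit keeps only library 7 of wild-type PBS and libraries 10 and 11 of wild-type ethanol. It has fewer libraries as well as less muscle, and within that fit these cannot be told apart for a lost call. A fit with a muscle covariate keeps all 12 libraries, and there Cd14 and Birc3 were called in wild type. The part of muscle in a lost call was not tested. In bulk tissue, fewer cells of a type and less RNA per cell cannot be told apart.

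Per kilobase of exon, the only scale on which levels of different genes are compared here, Nfkbia stood highest with a mean of 70.5 CPM per kb over the 12 libraries. Myd88 followed at 27.1, Zfp36 at 18.9, Birc3 at 15.9, Tlr2 at 10.4, Socs3 at 9.51, Cd14 at 7.55, Ly96 at 5.52, Tlr4 at 4.39 and Tnfaip3 at 3.78 CPM per kb. The ranges over libraries of Nfkbia and Myd88, of Myd88 and Zfp36, and of Birc3 and Tlr2 did not overlap, while every other pair of neighbours in this order overlapped. From the lowest to the highest library, Cd14 spanned 3.09-fold, Socs3 1.98-fold and Birc3 1.74-fold, and the other 7 genes 1.22-fold to 1.54-fold. The thinnest counts were those of Ly96, at 80 to 179 per library, and Cd14 had 171 to 593. Ordered by variation between libraries, the genes that stand first are thus 1 co-receptor and 2 of the feedback genes.

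**Figure D1:**
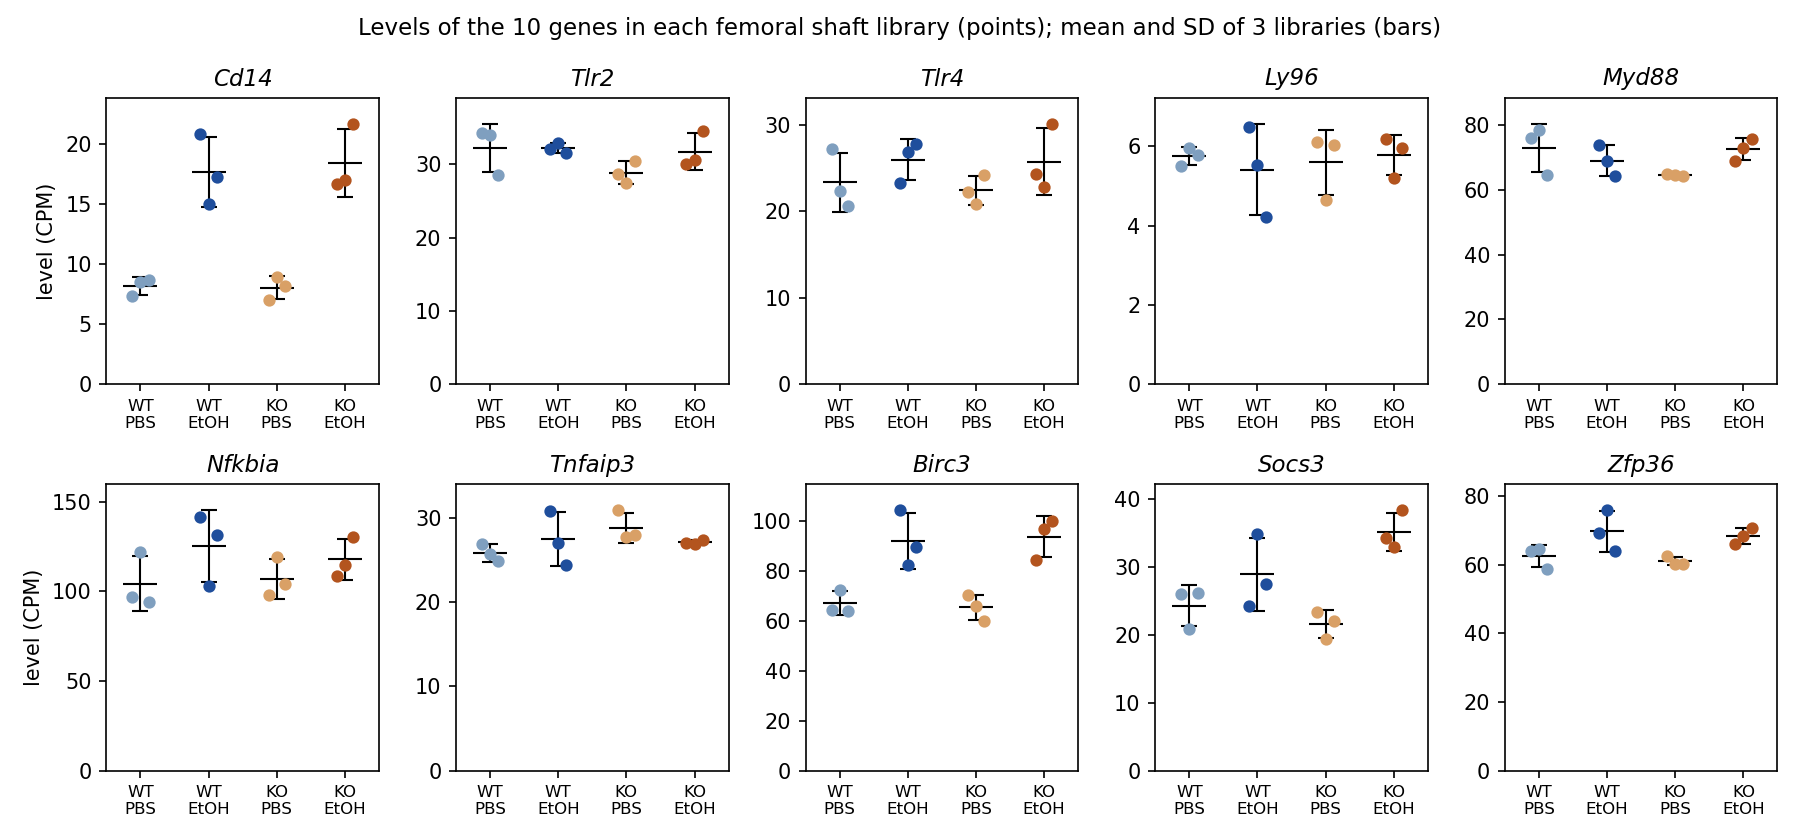
Level in CPM (vertical axes, from 0) of each of the 10 genes in every femoral shaft library, by group; points are libraries, each a pool of 2 mice, and bars give the mean and SD of 3. Cd14 and Birc3 lie higher in all ethanol libraries than in all PBS libraries of the same genotype, Socs3 does so in the knockout, and Tlr2, Tlr4 and Ly96 overlap between the gavages.

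Cd14 carried the largest change of the 10. Its gene is protein-coding, on the minus strand at chr18:36725067-36726798 (GRCm38). In wild type it was at 7.33, 8.50 and 8.66 CPM after PBS and at 20.8, 14.98 and 17.3 CPM after ethanol. In the knockout it was at 7.02, 8.92 and 8.18 CPM after PBS and at 16.6, 16.97 and 21.6 CPM after ethanol. Every ethanol library of either genotype was thus above every PBS library. The mean went from 8.16 ± 0.728 to 17.7 ± 2.93 CPM in wild type and from 8.04 ± 0.962 to 18.4 ± 2.80 CPM in the knockout (SD, n = 3 each). The log2 change was 1.12 in wild type (SE 0.15, 2.17-fold, edgeR quasi-likelihood test, Benjamini-Hochberg adjusted p = 0.0109) and 1.20 in the knockout (SE 0.15, 2.29-fold, edgeR adjusted p = 0.00535). Averaged over the genotypes it was 1.16 (SE 0.11, edgeR adjusted p = 0.000347). Without libraries 8, 9 and 12, with only library 7 left of wild-type PBS, the wild-type value was 1.30 and was not called. In a fit of only the 2 wild-type groups it was 1.13, with an edgeR adjusted p of 0.120. The averaged change was called in all 20 alternative settings.

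The receptors that Cd14 serves did not pass the test. Tlr4, the lipopolysaccharide receptor (chr4:66827584-66930284, plus strand), was at 27.2, 22.3 and 20.7 CPM after PBS and 23.3, 26.9 and 27.8 CPM after ethanol in wild type, and at 22.2, 20.8 and 24.2 against 24.4, 22.8 and 30.1 CPM in the knockout. The groups overlapped in both genotypes, and the averaged log2 change was 0.18 (95% interval -0.022 to 0.37, edgeR adjusted p = 0.247). Ly96, the small protein that completes the lipopolysaccharide-binding pocket of Tlr4 (chr1:16688051-16709611, plus strand), had group means of 5.42 to 5.78 CPM and an averaged log2 change of -0.019 (95% interval -0.27 to 0.24, edgeR adjusted p = 0.943). Its interval is the widest of the 10 averaged changes, and its counts are the lowest. Tlr2, the lipopeptide receptor (chr3:83836272-83841767, minus strand), was at 34.3, 34.0 and 28.5 CPM against 32.1, 32.9 and 31.5 CPM in wild type, and at 28.6, 27.4 and 30.5 against 30.1, 30.6 and 34.6 CPM in the knockout. Its PBS and ethanol libraries overlapped in both genotypes, and its averaged log2 change was 0.067 (95% interval -0.064 to 0.20, edgeR adjusted p = 0.536). A rise of either Tlr4 or Tlr2 as large as that of Cd14 lies outside these intervals.

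Myd88 is the adaptor that links Toll-like and interleukin-1 receptors to their kinases (chr9:119335934-119341411, minus strand). It was at 75.9, 78.4 and 64.5 CPM after PBS and 73.8, 69.1 and 64.4 CPM after ethanol in wild type, with overlap. In the knockout it was at 65.0, 64.5 and 64.2 CPM after PBS and 69.0, 73.0 and 75.6 CPM after ethanol, without overlap. Neither change was called: the log2 value was -0.079 in wild type (edgeR adjusted p = 0.672) and 0.17 in the knockout (edgeR adjusted p = 0.301). The exons of Myd88 share 290 bases (11.3% of its exon length) with those of Acaa1a on the opposite strand, and since the strand setting of the counting is not given, some of its counts may belong to Acaa1a.

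Birc3 (cIAP2), a ubiquitin ligase that NF-kB induces and that takes part in signalling from tumour necrosis factor receptors and in blocking cell death, was the second gene to rise in both genotypes. Its gene lies on the minus strand at chr9:7848699-7873186. It was at 64.3, 72.6 and 64.1 CPM after PBS and 104, 82.4 and 89.7 CPM after ethanol in wild type, and at 70.2, 66.05 and 60.1 against 84.5, 97.0 and 99.96 CPM in the knockout. As for Cd14, all 6 ethanol libraries were above all 6 PBS libraries. The log2 change was 0.46 in wild type (SE 0.10, 1.38-fold, edgeR adjusted p = 0.0489) and 0.52 in the knockout (SE 0.10, 1.43-fold, edgeR adjusted p = 0.0248). The wild-type call sat at the threshold: leaving out any 1 of the 12 libraries moved its adjusted p to between 0.0519 and 0.126, with log2 values of 0.36 to 0.53. Without libraries 8, 9 and 12 together it was at 0.55 and not called, with only library 7 left of wild-type PBS. In the knockout it was not called without library 1, 2, 3, 5 or 6 (log2 0.57, 0.52, 0.46, 0.49 and 0.47; edgeR adjusted p = 0.0710, 0.105, 0.127, 0.0690 and 0.105). Averaged over the genotypes, the log2 change was 0.49 (SE 0.070, 1.40-fold, edgeR adjusted p = 0.00215), called in all 20 alternative settings. Birc2, the neighbouring paralogue that codes for cIAP1, had an averaged log2 value of 0.11 (edgeR adjusted p = 0.144).

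Nfkbia and Tnfaip3, the best known inhibitors that NF-kB induces against itself, were not called. Nfkbia codes for IkBa, which holds NF-kB in the cytoplasm (chr12:55489410-55492647, minus strand). It was at 97.0, 122 and 93.9 CPM against 141, 103 and 132 CPM in wild type and at 97.7, 119 and 104 against 108, 115 and 130 CPM in the knockout. Library 8 lay above library 11 in wild type, and library 2 lay above libraries 4 and 5 in the knockout, so the gavages overlapped in both genotypes. The averaged log2 value was 0.20 (95% interval -0.0067 to 0.41, edgeR adjusted p = 0.205). Tnfaip3 codes for A20, an enzyme that edits ubiquitin chains and damps the pathway (chr10:19000910-19015657, minus strand). It was at 26.9, 25.7 and 24.9 CPM against 30.8, 27.0 and 24.4 CPM in wild type and at 30.9, 27.7 and 27.9 against 27.0, 26.9 and 27.3 CPM in the knockout. The log2 value of Tnfaip3 was -0.091 in the knockout (edgeR adjusted p = 0.680). Averaged over the genotypes it was -0.0017 (95% interval -0.13 to 0.13, edgeR adjusted p = 0.991).

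Socs3, which blocks JAK kinases behind interleukin-6 type receptors and is a target of STAT3, rose in the knockout (chr11:117966079-117970047, minus strand). There it was at 23.3, 19.3 and 22.1 CPM after PBS and at 34.2, 33.0 and 38.3 CPM after ethanol, with no overlap. The log2 change was 0.71 (SE 0.14, 1.63-fold, edgeR adjusted p = 0.0258). It was not called without library 1, 2, 3, 4 or 6 (log2 0.77, 0.63, 0.72, 0.73 and 0.64; edgeR adjusted p = 0.0755, 0.126, 0.107, 0.0678 and 0.105). In wild type it was at 26.0, 20.8 and 26.1 CPM after PBS and at 24.3, 34.8 and 27.5 CPM after ethanol, where library 10 lay among the PBS libraries and library 11 stood highest. The wild-type log2 value was 0.25 (SE 0.14, edgeR adjusted p = 0.405). The difference between the genotypes was itself 0.46 on the log2 scale (95% interval 0.040 to 0.88, edgeR unadjusted p = 0.0344, adjusted p = 1), so a larger response in the knockout was not shown. Averaged over the genotypes, Socs3 rose by 0.48 on the log2 scale (SE 0.096, 1.39-fold, edgeR adjusted p = 0.0104). Of the 20 alternative settings it missed the threshold in 1, the fit without libraries 8, 9 and 12 (log2 0.46, edgeR adjusted p = 0.0645).

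Zfp36 (tristetraprolin) binds AU-rich messages such as that of tumour necrosis factor and speeds their decay (chr7:28376784-28380253, minus strand). It was at 64.2, 64.6 and 58.9 CPM against 69.4, 76.0 and 64.1 CPM in wild type and at 62.7, 60.4 and 60.4 against 66.1, 68.5 and 70.8 CPM in the knockout. The groups overlapped in wild type, where library 12 lay among the PBS libraries, and did not overlap in the knockout. The averaged log2 value of 0.16 (SE 0.047, 1.12-fold) missed the threshold narrowly, with an edgeR adjusted p of 0.0502. It was called in 7 of the 20 alternative settings, among them the fit without library 12 (log2 0.19, edgeR adjusted p = 0.0228) and DESeq2 (log2 0.17, adjusted p = 0.0231). The antisense gene Gm44710 overlaps 125 of its exon bases (3.60%).

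**Figure D2:**
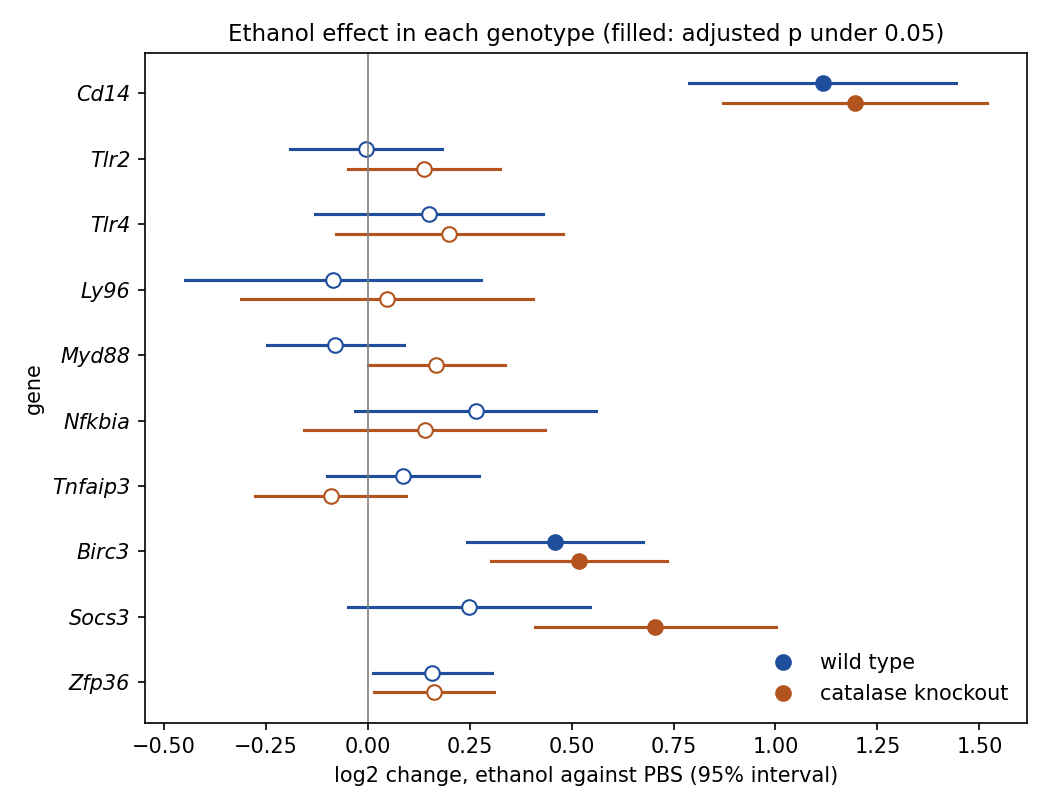
Log2 change from PBS to ethanol (horizontal axis) of each of the 10 genes in wild type and in the knockout, with 95% intervals from the edgeR fit; filled points passed an adjusted p of 0.05. Cd14 lies beyond 1 in both genotypes and Birc3 near 0.5, Socs3 is filled for the knockout only, and the other 7 genes lie between -0.091 and 0.26.

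Counted over the set, 2 of the 10 genes rose and none fell in wild type, where 1.26% of the 18161 genes tested were called, and 3 rose and none fell in the knockout, where 1.87% were called. Averaged over the genotypes 3 rose and none fell, against 10.8% of all genes called, 912 up and 1055 down. The median log2 change of the 10 was 0.15 in wild type, 0.17 in the knockout and 0.17 averaged, beside medians of -0.018, 0.00014 and -0.0088 over all genes. All ethanol libraries lay above all PBS libraries for 2 of the 10 genes in wild type (7.32% of all genes) and for 5 in the knockout (16.3% of all genes). The 5 were Cd14, Myd88, Birc3, Socs3 and Zfp36. This held in both genotypes for Cd14 and Birc3, and for 4.16% of all genes. Tnfaip3 lay the other way in the knockout, and the share of all genes that did so was not counted. The 10 genes were chosen with results of these data known, so these counts are a description.

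The loss of catalase alone was not seen to move any of the 10. After PBS, the knockout differed from wild type by log2 values from -0.18 (Myd88) to 0.16 (Tnfaip3), with none called by edgeR and 0.011% of all genes called. Before adjustment 1 of the 10, Myd88, passed 0.05 in the edgeR fit, as did 1350 of all 18161 genes. The value of Tnfaip3 had an edgeR adjusted p of 0.605. After ethanol the values ran from -0.089 (Nfkbia) to 0.28 (Socs3, edgeR adjusted p = 0.820), with none called and again 0.011% of all genes called. None of the 10 passed 0.05 before adjustment, beside 1050 of all 18161 genes. The ethanol effect differed between genotypes for none of the 10, with 0% of all genes called. Before adjustment 2 passed 0.05 in the edgeR fit, Socs3, given above, and Myd88, at a difference of 0.25 (95% interval 0.0099 to 0.48). Of all 18161 genes, 359 passed it. DESeq2, limma-voom and limma-trend also called none of the 10 in these 3 comparisons. The 95% interval of the difference was -0.38 to 0.54 for Cd14 and -0.25 to 0.36 for Birc3, with 3 pools per group. A moderate difference of either sign lies within these intervals.

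Promoter sequences were read beside these changes, since 3 of the 10 genes rose and 7 were not called. RefSeq windows of 300 bases (250 before to 50 after the start site, GRCm38.p6, minus strand for each gene shown) were read for 7 of the 10 genes. No window was read for Cd14, Tlr4 or Ly96, so of the 3 genes that rose only Birc3 and Socs3 are covered. The windows were searched on both strands for the kappaB consensus, to which NF-kB binds, for TTCNNNGAA, to which STAT proteins bind, and for TGANTCA, the AP-1 element. Of 32851 such windows of all genes, 4.51% held the kappaB consensus, 8.3% the STAT letters and 7.81% the AP-1 letters. The 5 windows below are those of Birc3 and Socs3, which rose, and of Nfkbia, Tnfaip3 and Tlr2, which held kappaB matches. Capitals mark the matches.
Birc3: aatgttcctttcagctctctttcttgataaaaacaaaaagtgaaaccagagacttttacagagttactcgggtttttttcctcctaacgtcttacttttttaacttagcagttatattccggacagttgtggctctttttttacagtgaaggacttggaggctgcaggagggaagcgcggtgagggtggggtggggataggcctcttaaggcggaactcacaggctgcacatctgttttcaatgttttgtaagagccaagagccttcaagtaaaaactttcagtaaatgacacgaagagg
Socs3: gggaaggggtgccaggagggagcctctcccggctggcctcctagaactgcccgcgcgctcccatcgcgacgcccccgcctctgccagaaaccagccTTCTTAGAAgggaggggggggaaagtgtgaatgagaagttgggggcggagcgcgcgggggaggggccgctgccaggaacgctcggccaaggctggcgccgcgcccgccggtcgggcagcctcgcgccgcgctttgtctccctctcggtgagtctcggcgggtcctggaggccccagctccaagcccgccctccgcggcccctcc
Nfkbia: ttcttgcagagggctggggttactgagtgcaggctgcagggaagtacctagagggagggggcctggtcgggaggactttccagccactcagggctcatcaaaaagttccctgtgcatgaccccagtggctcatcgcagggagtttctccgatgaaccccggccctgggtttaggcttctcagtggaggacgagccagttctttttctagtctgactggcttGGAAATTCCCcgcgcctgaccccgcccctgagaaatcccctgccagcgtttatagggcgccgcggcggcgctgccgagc
Tnfaip3: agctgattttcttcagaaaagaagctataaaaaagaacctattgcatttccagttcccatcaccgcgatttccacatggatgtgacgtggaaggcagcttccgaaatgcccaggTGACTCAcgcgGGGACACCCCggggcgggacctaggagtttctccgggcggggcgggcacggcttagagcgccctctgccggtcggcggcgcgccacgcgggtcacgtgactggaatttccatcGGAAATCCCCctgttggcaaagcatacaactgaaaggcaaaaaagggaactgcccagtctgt
Tlr2: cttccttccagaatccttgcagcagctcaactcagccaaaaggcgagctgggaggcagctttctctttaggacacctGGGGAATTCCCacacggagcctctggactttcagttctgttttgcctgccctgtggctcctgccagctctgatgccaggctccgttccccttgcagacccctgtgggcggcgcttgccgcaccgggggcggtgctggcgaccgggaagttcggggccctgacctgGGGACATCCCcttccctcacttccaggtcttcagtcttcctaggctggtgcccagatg

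The Birc3 window (chr9:7873121-7873420) held none of the 3 motifs, and the Socs3 window (chr11:117969317-117969616) held 1 STAT match, at -154 to -146 from the start site. The Nfkbia window (chr12:55492598-55492897) held 1 kappaB match, on the opposite strand at -29 to -20. The Tnfaip3 window (chr10:19015361-19015660) held 2 kappaB matches, beginning at -125 and -12, and 1 AP-1 match beginning at -136. A window at a further Tnfaip3 start held none. The Tlr2 window (chr3:83841559-83841858) held 3 kappaB matches, of which 2 overlap in the first capital run and 1 spans the start. The Myd88 and Zfp36 windows, not shown, held 1 STAT match each and no kappaB match. Of the 7 genes with a window read, the 3 with kappaB matches were not called. Of those without a kappaB match, Birc3 and Socs3 rose, and Myd88 and Zfp36 were not called. Cd14 was not read, and whether a motif went with a change was not tested. The windows are a description of letters in 300 bases and say nothing about which factors were bound.

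The rest of the pathway was read from a list of 77 further genes, of which 75 were tested; Il12b and Cxcl1 had at most 7 and 11 counts in any library. Averaged over the genotypes, 13 of the 75 rose and 4 fell, beside the 10.8% of all genes called. Of 13 other Toll-like receptors and co-receptors, 6 rose and none fell, with a median log2 change of 0.21. Tlr8, an endosomal receptor of the RNA-sensing group, went from 17.8 ± 1.09 to 27.6 ± 1.98 CPM in wild type and from 19.0 ± 1.77 to 28.9 ± 5.48 CPM in the knockout (SD, n = 3 each). Its averaged log2 change was 0.62 (SE 0.088, edgeR adjusted p = 0.00215), called in all 20 alternative settings. It was also the only gene of the list called in both genotypes, at 0.64 in wild type (edgeR adjusted p = 0.0390) and 0.60 in the knockout (edgeR adjusted p = 0.0344). The wild-type call was lost without any 1 library other than 4 or 6 (adjusted p up to 0.115) and without libraries 8, 9 and 12 (0.59, adjusted p = 0.257), and the knockout call without library 1, 2, 3, 5, 6 or 11 (adjusted p up to 0.156).

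Lbp, the plasma protein that carries lipopolysaccharide to Cd14, rose by 0.48 on the log2 scale averaged over the genotypes (edgeR adjusted p = 0.00922). Its level went from 82.1 ± 11.3 to 104.6 ± 10.6 CPM in wild type and from 73.5 ± 0.240 to 112.6 ± 21.6 CPM in the knockout (SD, n = 3 each). It was called in the knockout (0.62, edgeR adjusted p = 0.0409) and not in wild type (0.35, edgeR adjusted p = 0.222), and the difference between genotypes was not called (0.27, edgeR adjusted p = 1). Its knockout call was lost without any 1 of 8 libraries (1 to 4, 6, 7, 10 or 11), with an adjusted p of up to 0.157. Tlr13 and Tlr7, further endosomal sensors of RNA, rose by 0.48 (edgeR adjusted p = 0.0130) and 0.41 (edgeR adjusted p = 0.0128). Tlr6 and Tlr1, which pair with Tlr2, rose by 0.39 (edgeR adjusted p = 0.0285) and 0.29 (edgeR adjusted p = 0.0203); they fell outside the rule for naming genes and were named after their values were seen. Without library 2 the adjusted p of Tlr1 was 0.0581, and that of Tlr6 was 0.0512 to 0.0713 without library 1, 2, 3, 5, 6, 10 or 12. Without libraries 8, 9 and 12, Tlr7 was at 0.36 (adjusted p = 0.111) and Lbp at 0.46 (adjusted p = 0.0502).

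Further down the pathway, calls were spread over several roles, to be read beside the 10.8% of all genes called, 912 up and 1055 down. Of 17 adaptors and kinases 2 rose, Ikbke, an IkB-kinase relative that acts in interferon signalling, by 0.44 (edgeR adjusted p = 0.0220) and Tab2, which brings the kinase Tak1 to ubiquitin chains, by 0.13 (edgeR adjusted p = 0.0460). Of the 5 NF-kB subunits, Relb, the partner in the non-canonical arm, fell by 0.28 (edgeR adjusted p = 0.0263), and the other 4 had values between -0.020 (Nfkb1) and 0.054 (Rel). Of 24 other feedback and inhibitory genes 5 rose and none fell. They were Cish, a relative of Socs3, at 0.48 (edgeR adjusted p = 0.0443), Sigirr, an inhibitory receptor of the interleukin-1 family, at 0.29 (edgeR adjusted p = 0.0315), Traf1 at 0.29 (edgeR adjusted p = 0.0442), Zfp36l1, a relative of Zfp36, at 0.24 (edgeR adjusted p = 0.0356), and Otud7b, a deubiquitinase named after its value was seen, at 0.17 (edgeR adjusted p = 0.0357). Each of these 8 calls was lost when single libraries were left out, 3 of the 12 for Ikbke, 11 for Tab2, 6 for Relb, 9 for Cish, 8 for Sigirr, 10 for Traf1, 8 for Zfp36l1 and 8 for Otud7b, with adjusted p up to 0.124. Without libraries 8, 9 and 12 together, 4 of them were lost: Ikbke (0.29, edgeR adjusted p = 0.0912), Relb (-0.24, adjusted p = 0.0883), Otud7b (0.15, adjusted p = 0.0860) and Cish (0.62, adjusted p = 0.0837).

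No rise was called among the inflammatory products of NF-kB. Of 16 tested cytokines, chemokines, adhesion molecules and enzymes, 3 fell and 7 had positive values averaged over the genotypes, with a median log2 value of -0.19. Of all 18161 genes, 1055 fell. Ptgs2 (cyclooxygenase-2) fell by 0.99 on the log2 scale (SE 0.21, edgeR adjusted p = 0.0135), from 1.48 ± 0.396 to 0.758 ± 0.125 CPM in wild type and from 1.28 ± 0.0966 to 0.636 ± 0.241 CPM in the knockout (SD, n = 3 each). Its call held in all 19 alternative settings that gave a value. Cxcl10, an interferon-induced chemokine, fell by 0.77 (edgeR adjusted p = 0.0472) and Ccl4, a macrophage chemokine, by 0.74 (edgeR adjusted p = 0.0221). All 3 were scarce, below 5.1 CPM in every library. Tnf, whose message Zfp36 destabilises, had a log2 value of 0.0070 (edgeR adjusted p = 0.975), Il1b -0.27 (edgeR adjusted p = 0.123) and Il6 -0.22 (edgeR adjusted p = 0.609). In wild type 6 of the 16 had positive values, none called, among them Vcam1 (0.44, edgeR adjusted p = 0.241) and Ccl5 (0.40, edgeR adjusted p = 0.269). Mean Vcam1 was higher after ethanol in both genotypes, going from 371 to 503 CPM in wild type and from 512 to 660 CPM in the knockout. It was called in no ethanol comparison. The median above weighs each of the 16 genes alike, whether scarce or not. Tnf, Il1b, Il6, Vcam1 and Ccl5 fell outside the rule for naming genes. Without single libraries the call of Cxcl10 was lost in 9 of 12 cases and that of Ccl4 in 4 of 12. Without libraries 8, 9 and 12 together, neither was called, with Cxcl10 at -0.69 (edgeR adjusted p = 0.116) and Ccl4 at -0.54 (edgeR adjusted p = 0.163).

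**Figure D3:**
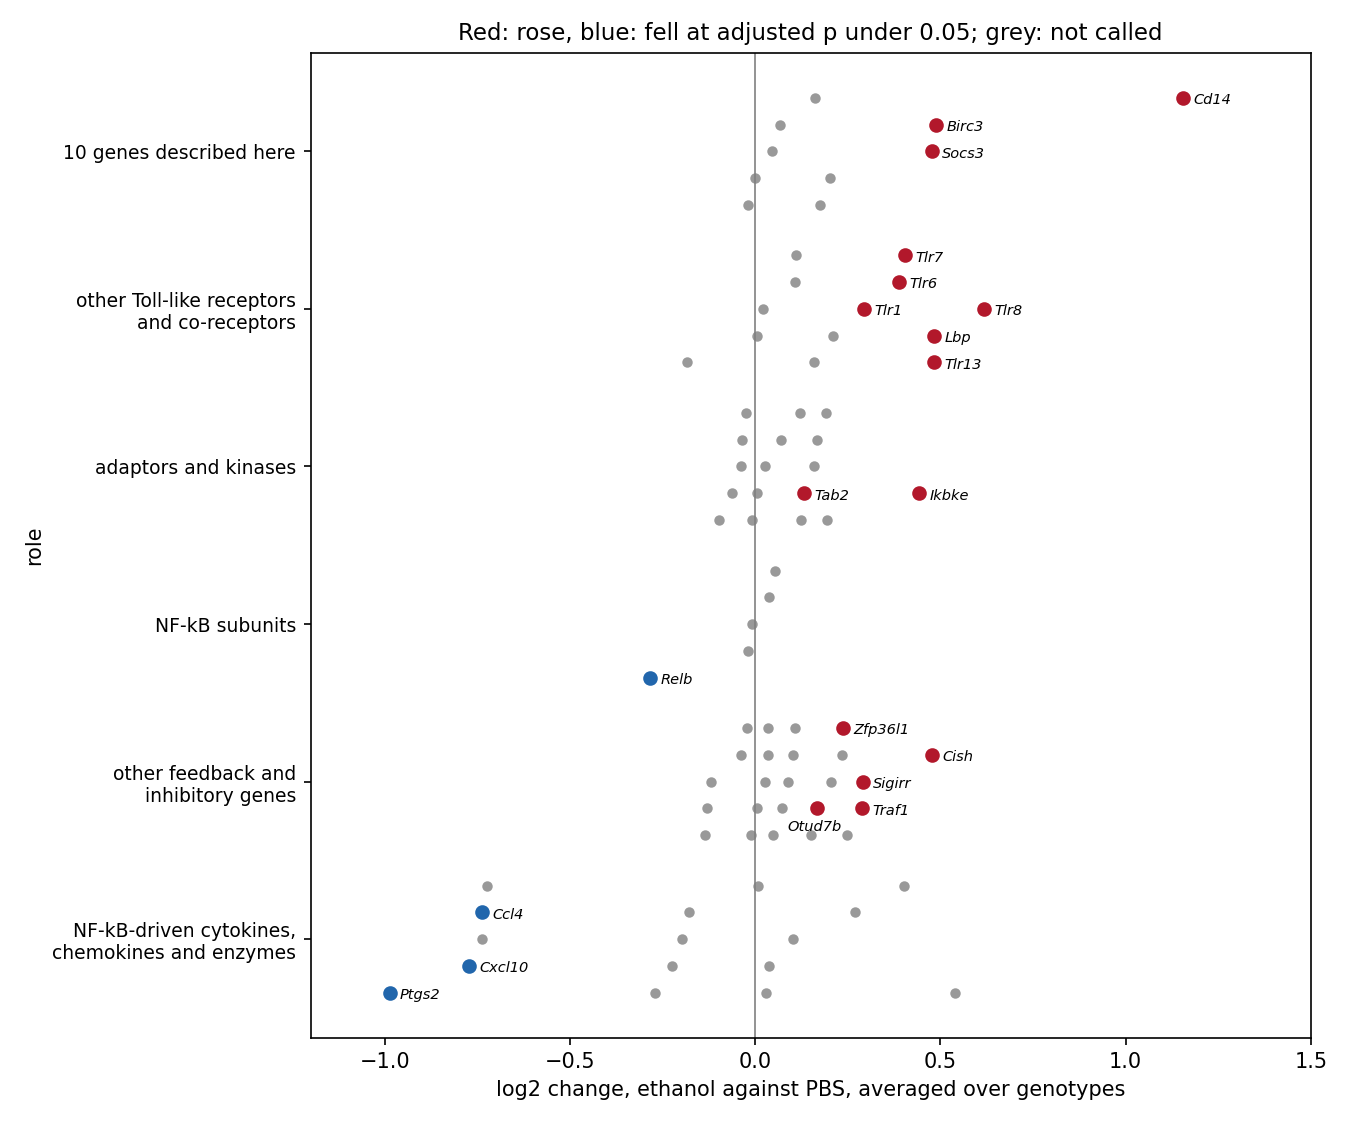
Log2 change from PBS to ethanol averaged over the genotypes (horizontal axis) of the 10 genes and of 75 further pathway genes, 1 point per gene, in rows by role; height within a row has no meaning. Coloured, named points passed an adjusted p of 0.05: 6 of 13 other receptors and co-receptors lie to the right, and the 3 coloured cytokines, chemokines and enzymes lie to the left.

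Markers of the cells that carry these receptors were set beside the changes. The summed level of 12 monocyte and macrophage markers was 1112 to 1216 CPM after PBS and 1054 to 1353 CPM after ethanol in wild type, and 1285 to 1307 against 1275 to 1381 CPM in the knockout. None of the 12 was called in any of the 3 ethanol comparisons, and the summed ranges overlapped in both genotypes. Of the 12, 9 had a positive log2 value after ethanol in wild type and 7 in the knockout. The summed level of 12 neutrophil markers was 23983 to 42525 against 25987 to 41032 CPM in wild type and 25762 to 26652 against 25944 to 29117 CPM in the knockout. Of these 12, Mmp8 (0.42, edgeR adjusted p = 0.0315) and Cxcr2 (0.35, edgeR adjusted p = 0.0330) rose in the averaged comparison, where 10.8% of all genes were called. There 8 of the 12 had positive log2 values, with a median of 0.105 over the 12. Osteoblast markers went from 13859 to 17019 down to 7452 to 13391 CPM in wild type and from 19531 to 23386 down to 7136 to 13844 CPM in the knockout. Of the 8, 5 fell averaged over the genotypes, beside the 10.8% of all genes called, 912 up and 1055 down. Of 7 osteocyte markers 1 fell there, Phex (-0.70, edgeR adjusted p = 0.0116). Of 8 osteoclast markers, Calcr (1.97, edgeR adjusted p = 0.000507) and Ocstamp (0.74, edgeR adjusted p = 0.0294) rose, and the summed osteoclast level was 1453 to 1593 against 1761 to 2587 CPM in wild type and 1532 to 1809 against 1528 to 1934 CPM in the knockout. The part of these shifts in the levels of the 10 genes was not tested.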

How the data were processed

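Bulk RNA of the femoral shaft was sequenced in 12 libraries, 3 per group, each a pool of 2 mice. Raw read counts per Ensembl gene, as deposited by the authors, were the main input. Per the submitters' processing notes, the tools were STAR 2.5.2b, Trimmomatic 0.36, Subread 1.5.2 and featureCounts, and the build was GRCm38. Their settings, annotation release and strand were not given in the sources used here; counts of genes that overlap on opposite strands may be mixed. The authors' second table holds a normalized signal, the deposited count divided by 1 factor per library for genes with a mean count above 10; it gave the symbols and 1 alternative. No date or batch is labelled.

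Low genes were removed by filterByExpr (at least 10 counts, 15 in total), leaving 18161. An edgeR 4.0.16 quasi-likelihood model (R 4.3.3, TMM, robust) held 1 coefficient per group, with 8 residual degrees of freedom. P-values were Benjamini-Hochberg adjusted over all genes tested, and called means an adjusted p under 0.05. Unless another tool is named, adjusted p-values come from this fit. The fit was tested on simulated data. Coordinates come from GENCODE M21 (GRCm38), promoters from RefSeq. Alternatives were RLE factors, no filter, a filter of 5 CPM in 3 libraries, DESeq2 1.42.0, limma 3.58.1 (voom, and trend on log2 of the deposited signal plus 1), only the 2 groups compared, a muscle covariate, no libraries 8, 9 and 12, and leaving out each library.

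Named by rule were all 10 genes, up to 4 called genes per pathway role by size of change, and for each of the 10 the 2 genes of highest correlation. Birc2, Nfkb1 and Rel, none of them called, were named outside this rule, as were the genes marked so above. The 10 genes, the lists and the alternatives were chosen with earlier results of these data known.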

Additional observations from a re-analysis of the deposited data

How the results depend on the processing

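The limit on every comparison is the number of pools, 3 per group, and the 3 wild-type libraries richest in muscle. Without these 3, library 7 alone stands for wild-type PBS. Averaged over the genotypes, Cd14 (1.09 to 1.25) and Birc3 (0.44 to 0.54) were called in all 20 alternatives and Socs3 (0.40 to 0.53) in 19. The single-genotype calls depended more on the fit. In wild type, of 2 genes called, limma-voom and limma-trend called 1, leaving out any 1 library also left 1, and both the fit of only the 2 groups and the fit without libraries 8, 9 and 12 called 0. In the knockout, of 3, leaving out 1 library gave 1 to 3. For the pathway list, wild type had 1 called and 5 with DESeq2, 0 with limma-voom, with 2 groups or without libraries 8, 9 and 12, and 0 to 2 without 1 library. The knockout had 2 called and 1 with no filter, 6 with DESeq2, 1 with limma-trend, 10 with 2 groups, 11 without libraries 8, 9 and 12, and 0 to 3 without 1 library. The averaged 17 became 11 without libraries 8, 9 and 12, and 6 to 17 without 1 library. Over all genes, the 229 calls in wild type became 709 with DESeq2, 138 with limma-voom, 4 with 2 groups, 503 with the muscle covariate, 37 without libraries 8, 9 and 12 and as few as 35 without 1 library (library 10). The 339 in the knockout became 951 with DESeq2, 1677 with 2 groups, 876 with the muscle covariate, 1342 without libraries 8, 9 and 12 and 52 (library 2) to 568 (library 12) without 1 library. The averaged 1967 fell to 1040 without library 3. DESeq2 called 1 gene for the interaction and 13 for the knockout after ethanol, none of them among the 10.

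Changes of sign were limited to uncalled values, and their cause was not tested. In wild type after ethanol, Tlr2 was at 0.0056 with RLE, 0.0029 with no filter, 0.0024 with the 5 CPM filter, 0.0056 with DESeq2, 0.00076 with limma-voom, 0.011 with limma-trend and 0.012 with 2 groups. Averaged, Tnfaip3 was at 0.0028 with RLE, 0.0034 with no filter, 0.0045 with DESeq2 and 0.0013 with limma-trend. For the interaction, Zfp36 was at -0.0051 with RLE, -0.0046 with the 5 CPM filter, -0.0037 with DESeq2 and -0.0035 with limma-trend. Without libraries 8, 9 and 12, values turned to -0.10 (Tlr4) and 0.14 (Ly96) in wild type, 0.096 (Ly96) and 0.014 (Tnfaip3) averaged, -0.10 (Cd14), -0.090 (Ly96), -0.031 (Birc3) and -0.030 (Zfp36) for the interaction, 0.14 (Cd14), 0.021 (Ly96) and 0.026 (Birc3) for the knockout after PBS, and 0.026 (Tlr4), -0.069 (Ly96) and -0.0045 (Birc3) for the knockout after ethanol.

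Leaving out 1 library gave these ranges across 0. In wild type they were -0.079 to 0.048 for Tlr2, -0.24 to 0.071 for Ly96 and -0.0041 to 0.17 for Tnfaip3, in the knockout -0.072 to 0.12 for Ly96, and averaged -0.094 to 0.057 for Ly96 and -0.047 to 0.037 for Tnfaip3. For the interaction they were -0.053 to 0.21 for Cd14, -0.078 to 0.13 for Tlr4, -0.028 to 0.28 for Ly96, -0.021 to 0.16 for Birc3 and -0.066 to 0.069 for Zfp36. For the knockout after PBS they were -0.11 to 0.070 for Cd14, -0.13 to 0.062 for Tlr4, -0.11 to 0.074 for Ly96, -0.052 to 0.18 for Nfkbia, -0.086 to 0.046 for Birc3 and -0.063 to 0.0094 for Zfp36. For the knockout after ethanol they were -0.073 to 0.19 for Cd14, -0.085 to 0.019 for Tlr2, -0.14 to 0.068 for Tlr4, -0.054 to 0.24 for Ly96, -0.21 to 0.0077 for Nfkbia, -0.092 to 0.073 for Tnfaip3, -0.049 to 0.13 for Birc3 and -0.084 to 0.037 for Zfp36. No paired analysis was possible because the groups share no replicate numbers.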

Other observations

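For each of the 10 genes, the 2 genes whose log2 CPM followed it most closely over the 12 libraries were taken from all 18161 tested, as a description. The 12 libraries share 4 groups, so a gene that responds to ethanol scores high with any other that does. Cd14 was closest to Acot1 (Pearson r = 0.966), which has near-identical copies and is uncertain, and to the metallothionein Mt1 (r = 0.963). Birc3 was closest to Sfn (r = 0.969) and Acot1 (r = 0.962), and Socs3 to Epas1 (r = 0.933) and Wnk1 (r = 0.926). Nfkbia was closest to Cd200r4 (r = 0.949) and E230001N04Rik (r = 0.937), Tnfaip3 to Lat2 (r = 0.925) and Ints14 (r = 0.914), and Zfp36 to Gm11131 (r = 0.930) and Sdr42e1 (r = 0.929). The receptors and Myd88 had looser matches: Tlr2 with Sptlc2 (r = 0.891) and Mfrp (r = 0.888), Tlr4 with Map3k2 (r = 0.910) and Gm14085 (r = 0.904), Ly96 with Proser1 (r = 0.874) and 4930515G01Rik (r = 0.867), and Myd88 with Emilin2 (r = 0.894) and Med17 (r = 0.875). None of the 10 genes was among the 2 closest of another. Each r is among the 2 highest of 18161 over only 12 libraries, and what such picking alone yields was not computed. Some partners were scarce, with means of 0.785 CPM for Mfrp, 0.959 for 4930515G01Rik and 2.63 for Cd200r4.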
